A study of Danio rerio with 8 samples.

Results

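The genes described here are 10 genes of purine and pteridine metabolism that zebrafish pigment cells use: the purine synthesis genes PPAT, GART, PAICS, ATIC and GMPS, the iridophore genes pnp4a and ltk, and the pteridine genes gch2, PTS and XDH. They were chosen by gene symbol, irrespective of case, and each symbol belonged to 1 of the 32520 Ensembl genes of the expression table. RNA sequencing was performed on whole larvae at 2 days of age. The 4 mutant libraries came from untreated larvae homozygous for the nphp8 allele sa24730 that also lacked the maternal gene product, and the 4 control libraries came from untreated larvae that the labels give as WT and the series design calls siblings. How many larvae and clutches made up a library is not stated in the labels, so p-values measure the spread between these libraries, which may be technical. If both labels hold, larvae without the maternal product and WT larvae had different mothers. Effects of mother or clutch therefore cannot be told apart from those of the mutation.

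Zebrafish iridophores reflect light from platelets of crystallised purine, chiefly guanine, and xanthophores of the larva are coloured yellow by pteridines. Both pigments draw on purine synthesis, because pteridines are made from GTP. The routes part at gch2, which opens the pteridine branch, and at purine nucleoside phosphorylase, which releases the free base for the platelets. Purine synthesis itself runs in every dividing cell, so whole-larva RNA of PPAT, GART, PAICS, ATIC and GMPS is not specific to pigment cells.

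Values are TPM, a level per transcript length expressed as a share of its library. The depth is unknown, and each library listed 23637 to 23964 genes above 0. The mutated gene, listed as RPGRIP1L (ENSDARG00000051754), stood at 0.75, 0.72, 0.77 and 0.78 TPM in mutant replicates 1 to 4, against 2.75, 2.6, 2.26 and 2.17 TPM in control replicates 1 to 4. It was lower in all 4 mutant libraries (limma adjusted p = 2.47e-05). Of 16560 genes that averaged 1 TPM or more, 22.6% changed at a limma adjusted p under 0.05, with 9.32% higher and 13.3% lower in mutants, and for 26.1% the mutant and control libraries did not overlap. The balance of directions depends on the scaling: higher genes made up 41.2% of the changed genes on the deposited scale, 48.1% after median-of-ratios rescaling and 50.7% when libraries were scaled leaving out mitochondrial genes and the 50 most abundant.

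Of the 10 pigment pathway genes, 9 passed the filter of 1 TPM, and 3 of these 9 (33.3%) changed in mutants, against 22.6% of all genes tested. PAICS and gch2 fell, ATIC rose, and GART, PPAT, GMPS, pnp4a, PTS and XDH did not pass. The libraries did not overlap for PAICS, gch2 and GART, 3 of 9 against 26.1% of all genes tested. In all 3 the mutant libraries were the lower ones, as they were for 14.8% of all genes tested. With 9 genes, shares of this size are near the background. The share called was higher among more abundant genes: 29.9% of the 10367 genes averaging at least 5 TPM changed. All 9 but XDH reached that level. The median log2 change of the 9 genes was -0.08, against -0.02 over all genes tested, and the median absolute log2 change was 0.08, against 0.11. In whole-larva RNA, fewer cells of a type and less RNA per cell cannot be told apart.

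The levels of the 10 genes spanned a wide range, with PAICS and gch2 far above the rest. In mutants the means ran from 449 ± 8.04 TPM for PAICS and 354 ± 11.1 TPM for gch2 down to 2.73 ± 0.197 TPM for XDH and 0.565 ± 0.0911 TPM for ltk, against 535 ± 6.75, 377 ± 4.56, 2.61 ± 0.0995 and 0.478 ± 0.177 TPM for the same genes in controls (SD, n = 4 each). Averaged over the 8 libraries, PAICS lay above 98.4% and gch2 above 98.0% of the genes tested, and XDH above 21.1%. The order in controls was PAICS, gch2, ATIC, GART, PPAT, pnp4a, GMPS, PTS, XDH and ltk, and the mutant means had the same order. Every neighbouring pair in this order was separate in each group, except GMPS and PTS, whose control libraries overlapped.

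**Figure D1:**
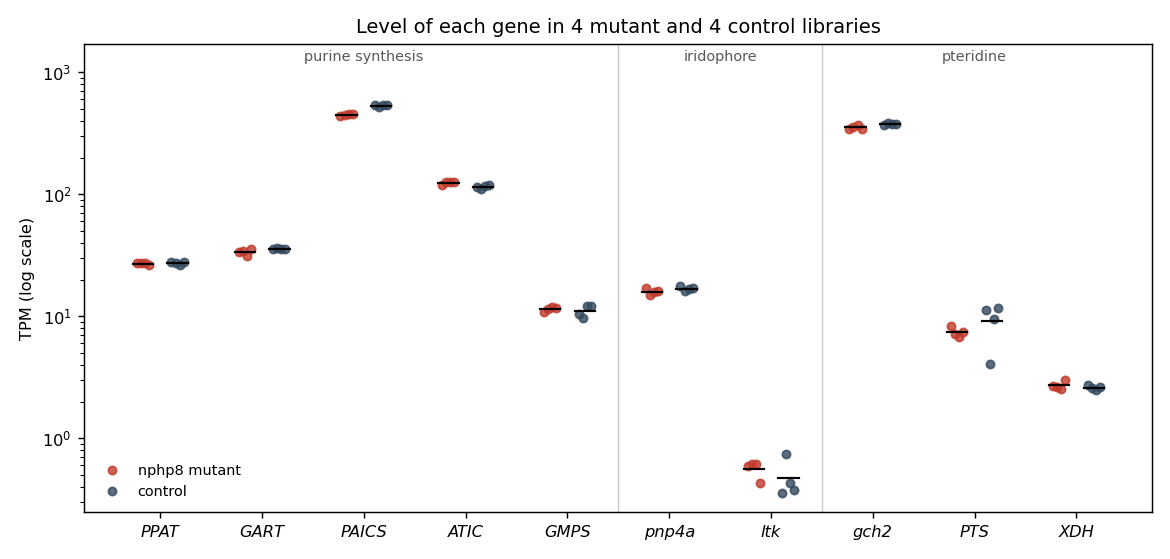
Level of the 10 genes in TPM on a logarithmic axis, in the mutant (left of each pair) and control (right) libraries. Each point is a library, n = 4 per group, and the bar is the mean. PAICS and gch2 stand above all others in both groups, ltk lies under 1 TPM, and 1 control library of PTS, at 4.08 TPM, sits apart below the other 3.

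PAICS (ENSDARG00000033539) showed the clearest difference of the 10 genes. It encodes a bifunctional enzyme of the middle of the pathway, and its loss in zebrafish is known to reduce the pigment of both iridophores and xanthophores. Its level was 440.81, 443.82, 456.32 and 455.84 TPM in mutant replicates 1 to 4, against 537.64, 525.1, 539.22 and 538.72 TPM in control replicates 1 to 4. All mutant libraries lay below all control libraries, and the libraries within a group differed little. The ratio of means was 0.839, and the log2 change of -0.25 (SE 0.0202, 95% interval -0.3 to -0.21) had a limma adjusted p = 2e-05. Its absolute change was larger than that of 83.5% of all genes tested. Among the genes that changed it was ordinary, as their median absolute log2 change was 0.262. PAICS passed under all 16 alternative settings, with a limma adjusted p of 0.00141 at most.

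Of the other 4 genes of purine synthesis, ATIC rose and GART, PPAT and GMPS did not pass. ATIC (ENSDARG00000016706), for the last steps that close the ring to IMP, was at 118.33, 126.25, 125.52 and 125.89 TPM in mutants, against 115.98, 111.46, 116.67 and 119.21 TPM in controls. The mutant libraries were higher on the whole, but the lowest of them lay within the control range. ATIC rose by a ratio of 1.07, with a log2 change of 0.10 (SE 0.0304, 95% interval 0.03 to 0.17, limma adjusted p = 0.0443). This call is close to the threshold. It was lost without a filter on low values (limma adjusted p = 0.0601), without the mean-variance trend (0.115) and with a replicate block (0.0818). It was also lost when mutant replicate 2, 3 or 4 or control replicate 1, 2 or 3 was left out (up to 0.106, without control replicate 2).

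GART (ENSDARG00000101089), whose protein carries several of the early activities, was at 33.78, 34.11, 31.55 and 35.39 TPM in mutants and at 35.55, 36.41, 35.71 and 35.41 TPM in controls. The groups did not overlap, although the highest mutant and the lowest control library were almost equal. The log2 change of -0.08 (95% interval -0.17 to -0.0016) did not pass over all genes (limma adjusted p = 0.134).

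PPAT (ENSDARG00000004517), the enzyme of the committed first step, was at 27.27, 27.2, 27.6 and 26.24 TPM in mutants and at 27.95, 27.59, 26.21 and 27.67 TPM in controls. The libraries of the groups overlapped almost completely, and the 95% interval of the log2 change ran from -0.09 to 0.06 (limma adjusted p = 0.803). In RefSeq's table of another assembly, GRCz12tu, PAICS and PPAT are immediate neighbours with 0 protein-coding genes between them. GMPS (ENSDARG00000079848), which makes GMP from XMP, was at 10.87, 11.42, 11.89 and 11.79 TPM in mutants and at 10.41, 9.7, 12.17 and 12.27 TPM in controls, with the mutant values inside the control range. Its log2 change of 0.05 had a 95% interval of -0.12 to 0.21 (limma adjusted p = 0.689), so a change of the size seen for PAICS lay outside the interval of both PPAT and GMPS.

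**Figure D2:**
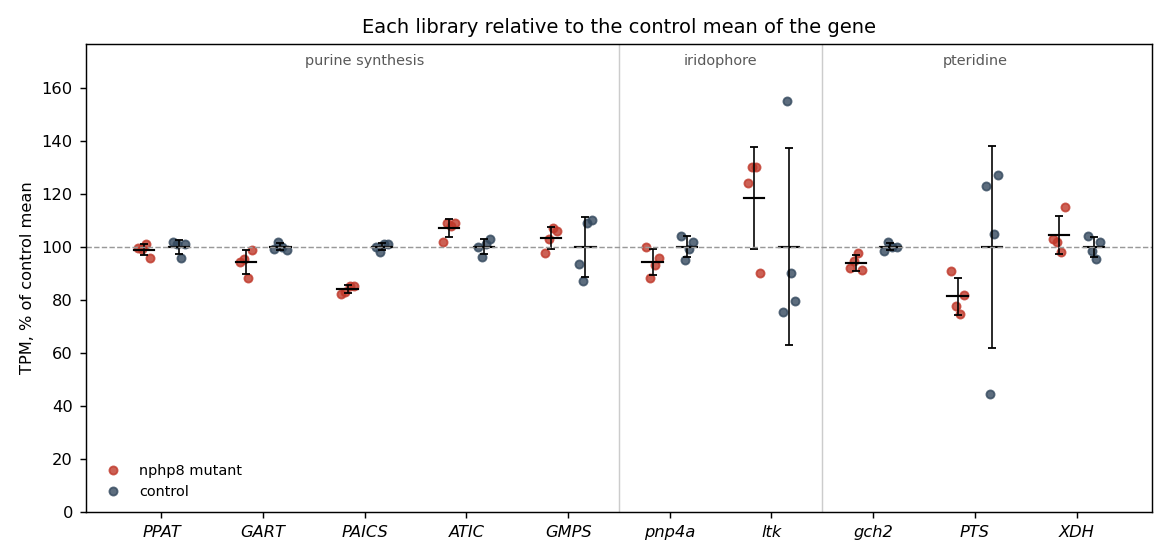
The same libraries as a percentage of the control mean of each gene, mutants left and controls right of each pair. Points are libraries, bars are means and whiskers are SD, n = 4 per group. The mutant libraries of PAICS sit together below the controls, ATIC sits slightly above and gch2 slightly below, while ltk and the controls of PTS spread widely.

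Ratios of genes within a library do not depend on how the library was scaled, and they set PAICS against its partners directly. These ratios were chosen after the values of the genes had been seen. PAICS stood at 3.73, 3.52, 3.64 and 3.62 times the level of ATIC in mutants, against 4.64, 4.71, 4.62 and 4.52 times in controls. The groups were separate, with a log2 difference of -0.351, and shifts from -0.422 to -0.279 were not rejected at 0.05 by the exact permutation test.

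The PAICS to PPAT ratio averaged 16.6 ± 0.539 in mutants and 19.6 ± 0.687 in controls, and the PAICS to GMPS ratio 39.1 ± 0.979 in mutants and 48.5 ± 5.17 in controls (SD, n = 4 each). The PAICS to gch2 ratio averaged 1.27 ± 0.0404 in mutants and 1.42 ± 0.033 in controls. In these 4 ratios, to ATIC, PPAT, GMPS and gch2, all mutant libraries lay below all controls. Each reached the smallest two-sided p the exact permutation test over 70 assignments allows (p = 0.0286, adjusted p = 0.0429 over 6 ratios). All 4 share PAICS, whose own groups had been seen not to overlap, so they are not separate support for its fall. The adjustment does not correct for that choice. The PAICS to GART ratio averaged 13.4 ± 0.745 in mutants and 15.0 ± 0.365 in controls and did not pass (exact permutation p = 0.0571, adjusted p = 0.0686), although on log2(TPM + 1) it reached p = 0.0286. PAICS made up 69.0% to 69.9% of the summed TPM of PPAT, GART, PAICS, ATIC and GMPS in mutants, against 73.5% to 73.9% in controls. Without PAICS the sum of the other 4 was 190.2 to 199.3 TPM in mutants and 185.2 to 194.6 TPM in controls, and these ranges overlapped.

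**Figure D3:**
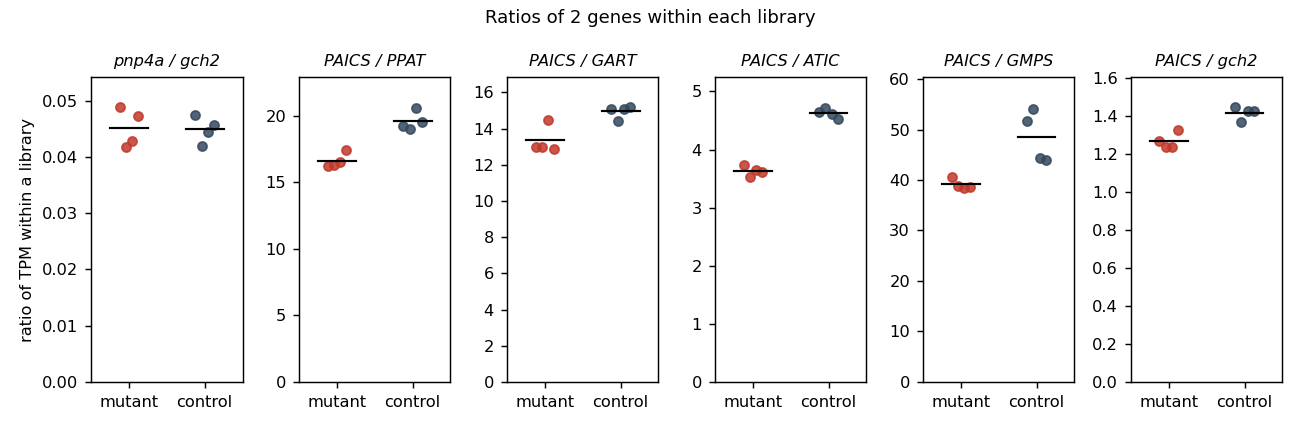
Ratio of the TPM of 2 genes within each library, with mutants left and controls right in each panel and a bar at the mean of 4 libraries. The pnp4a to gch2 ratio overlaps between the groups, and the PAICS ratios to PPAT, ATIC, GMPS and gch2 are lower in all mutant libraries.

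On the pteridine side, gch2 (ENSDARG00000099101) encodes the GTP cyclohydrolase of zebrafish pigment cells. It was at 346.29, 357.09, 367.9 and 343.46 TPM in mutants, against 371.3, 382.45, 376.36 and 376.59 TPM in controls. All mutant libraries were below all controls, by a small margin between the highest mutant and the lowest control. Its ratio was 0.939, with a log2 change of -0.09 (SE 0.0251, 95% interval -0.15 to -0.035, limma adjusted p = 0.0271). The call was lost after median-of-ratios rescaling (limma adjusted p = 0.0652) and after rescaling without mitochondrial and the 50 most abundant genes (0.0931). It was also lost without the mean-variance trend (0.112) and with a replicate block (0.0521). The same held when mutant replicate 1 or 4 or control replicate 2, 3 or 4 was left out (up to 0.0739, without mutant replicate 1). Its paralogue GCH1, which serves tetrahydrobiopterin synthesis in neurons, was at 2.08 ± 0.168 TPM in mutants and 2.43 ± 0.165 TPM in controls (SD, n = 4 each; limma adjusted p = 0.149). The level of gch2 was 159 to 186 times that of GCH1 in mutant libraries and 143 to 167 times in controls.

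PTS (ENSDARG00000045269) encodes pyruvoyltetrahydropterin synthase, which acts after GTP cyclohydrolase. It was at 8.33, 7.11, 6.84 and 7.51 TPM in mutants, against 11.31, 4.08, 9.6 and 11.66 TPM in controls. Control replicates 1, 3 and 4 were above every mutant library, whereas control replicate 2 was below every one. With all libraries the log2 change was -0.18, with a 95% interval of -0.74 to 0.37 (limma adjusted p = 0.643). Without control replicate 2 it was -0.49 (limma adjusted p = 0.00406), so the call for PTS rests on whether that library is counted. Without control replicate 2, 2 of the 9 genes were called, both lower, and these were PAICS and PTS.

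XDH (ENSDARG00000055240), the xanthine dehydrogenase that oxidises hypoxanthine and xanthine and also acts on pterins, was at 2.68, 2.65, 2.56 and 3.01 TPM in mutants and at 2.72, 2.57, 2.49 and 2.65 TPM in controls. The groups overlapped, and the log2 change of 0.05 had a 95% interval of -0.1 to 0.19 (limma adjusted p = 0.664).

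Of 7 tested genes of the pteridine and tetrahydrobiopterin list besides gch2, PTS and XDH, 0 rose and 0 fell by limma. Over all genes tested the share called was 22.6%, and with 7 genes, 0 calls do not set the list apart from it. By limma at an unadjusted p under 0.05, there were 1 higher and 1 lower. Under 5 of 16 alternative settings, both rescalings and the omission of control replicate 2 among them, 1 gene of the list rose. The nearest to the threshold was a sepiapterin reductase copy, SPR (ENSDARG00000058553), at 28.7 TPM in mutants and 25.2 TPM in controls (ratio 1.14, limma adjusted p = 0.0574), named after its value was seen. The xanthophore oxidase gene aox5, at 17.8 TPM in mutants and 19.0 TPM in controls, had a ratio of 0.941 (limma adjusted p = 0.102), almost that of gch2. Of 8 tested xanthophore markers besides gch2 and XDH, slc2a15b, a sugar transporter gene needed for xanthophore pigment in medaka, fell (ratio 0.909, limma adjusted p = 0.0434) and SOX5 rose (ratio 1.17, limma adjusted p = 0.0132). The remaining 6 did not pass, so 2 of 8 were called, against 22.6% of all genes tested. Besides aox5, they were the receptor gene csf1ra (ratio 0.931), both PAX7 copies (0.895 and 0.979), SCARB1 (1.1) and slc22a7a (1.0). The slc2a15b call was lost under 11 of 16 alternative settings. The summed level of the 10 xanthophore markers was 452 to 476.2 TPM in mutants and 485.1 to 492.8 TPM in controls, and most of it is gch2.

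On the iridophore side, pnp4a (ENSDARG00000057575), a purine nucleoside phosphorylase and early iridophore marker, was at 16.95, 14.94, 15.78 and 16.24 TPM in mutants, against 17.62, 16.07, 16.75 and 17.2 TPM in controls. The groups overlapped, and the log2 change of -0.08 (95% interval -0.18 to 0.03) did not pass (limma adjusted p = 0.271). The receptor tyrosine kinase gene ltk (ENSDARG00000042861), which iridophores need to form, was at 0.59, 0.62, 0.62 and 0.43 TPM in mutants and at 0.36, 0.74, 0.43 and 0.38 TPM in controls. It lay below the filter, its control libraries spanned the whole mutant range, and when genes of any level were tested its limma adjusted p was 0.575.

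Of 6 tested iridophore markers besides pnp4a, apoda.1 rose (9.49 TPM in mutants and 7.55 TPM in controls, ratio 1.26, limma adjusted p = 0.00536), 0 fell and 5 did not pass (16.7% called; 2 higher and 0 lower by limma at an unadjusted p under 0.05). With 6 genes, the 16.7% called does not set these markers apart from the 22.6% called over all genes tested. TFEC, a transcription factor of the iridophore lineage, was at 3.81 TPM in mutants and 4.32 TPM in controls (ratio 0.881, limma adjusted p = 0.236). The mitochondrial membrane gene MPV17, mutated in the iridophore mutant transparent, was at 21.0 TPM in both groups. Of the markers that did not pass, TJP1 was nearest to the threshold, at 24.5 TPM in mutants and 21.9 TPM in controls (ratio 1.12, limma adjusted p = 0.0762). SLC23A1 and the tested FHL2 copy had ratios of 1.01 and 0.944. Among the ligand genes of ltk, alkal1, ALKAL2 and alkal2b were all under 1 TPM on average and were not tested.

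The iridophore and xanthophore routes were compared within each library by the ratio of pnp4a to gch2. It was 0.0489, 0.0418, 0.0429 and 0.0473 in mutants, against 0.0475, 0.042, 0.0445 and 0.0457 in controls. The groups overlapped over most of their range. The log2 difference was 0.009 (exact permutation p = 0.943, adjusted p = 0.943 over 6 ratios), and shifts from -0.181 to 0.22 were not rejected at 0.05. Relative changes of pnp4a and gch2 within these bounds are therefore not excluded by this test. The bounds hold for this pair of genes and not for the routes as a whole.

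The profiles most like those of pnp4a and gch2 were sought by the root-mean-square difference of log2(TPM + 1), centred on each gene's mean over the 8 libraries. For pnp4a the closest were MRGBP, SRP72 and spint2, at differences of 0.0265, 0.0331 and 0.0347, while pnp4a itself spread by 0.0673 around its mean. For gch2 they were EIF3G, WIPI2 and FZR1, at 0.0144, 0.0149 and 0.0151, with a spread of 0.0543 for gch2. These genes were picked as the closest among all genes tested over only 8 libraries. Whether they share regulation with pnp4a or gch2 was not tested.

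Of 10 tested genes of purine synthesis and its GTP branch besides the 5 above, 2 rose, 1 fell and 7 did not pass (30.0% called, against 22.6% of all genes tested). Both genes that rose encode adenylosuccinate synthases, which lead from IMP towards AMP: ADSS1 was at 13.3 TPM in mutants and 11.1 TPM in controls (ratio 1.2, limma adjusted p = 0.00344), and ADSS2 at 14.4 TPM in mutants and 12.1 TPM in controls (ratio 1.2, limma adjusted p = 0.0319). The gene that fell was an IMP dehydrogenase copy, IMPDH1 (ENSDARG00000029524), for the step from IMP towards GTP, at 75.2 TPM in mutants and 80.6 TPM in controls (ratio 0.934, limma adjusted p = 0.0423). The other genes of these steps did not pass: the second IMPDH1 copy (ENSDARG00000042336) had a ratio of 1.25 (limma adjusted p = 0.0946), IMPDH2 one of 0.995 (0.888) and the synthase gene adssl one of 1.05 (0.111). The calls of ADSS2 and IMPDH1 were lost under 7 and 11 of 16 alternative settings. PFAS, which acts between activities of GART, and ADSL, which acts on the product of PAICS, had ratios of 0.962 and 1.02 and did not pass (limma adjusted p = 0.642 and 0.539).

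Of 14 tested genes of purine salvage and breakdown besides pnp4a and XDH, 2 rose, 1 fell and 11 did not pass (21.4% called). This share is near the 22.6% called over all genes tested. An AMP deaminase copy, AMPD2 (ENSDARG00000104491), was at 4.68 TPM in mutants and 2.98 TPM in controls (ratio 1.57, limma adjusted p = 0.00171), and adenosine deaminase, ADA, at 4.39 TPM in mutants and 2.88 TPM in controls (ratio 1.52, limma adjusted p = 0.00264). A copy of the salvage enzyme hypoxanthine phosphoribosyltransferase, hprt1l, fell to 3.43 TPM in mutants, against 5.12 TPM in controls (ratio 0.671, limma adjusted p = 0.00322). The more abundant HPRT1, at 17.3 TPM in mutants and 17.7 TPM in controls, did not pass (ratio 0.979, limma adjusted p = 0.663). Nor did the other AMPD2 copy (ENSDARG00000029952), at 4.82 TPM in mutants and 4.56 TPM in controls (ratio 1.06, limma adjusted p = 0.597). Genes with the symbol PNP, 1 of which rose, are not in this list and are described under other observations.

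**Figure D4:**
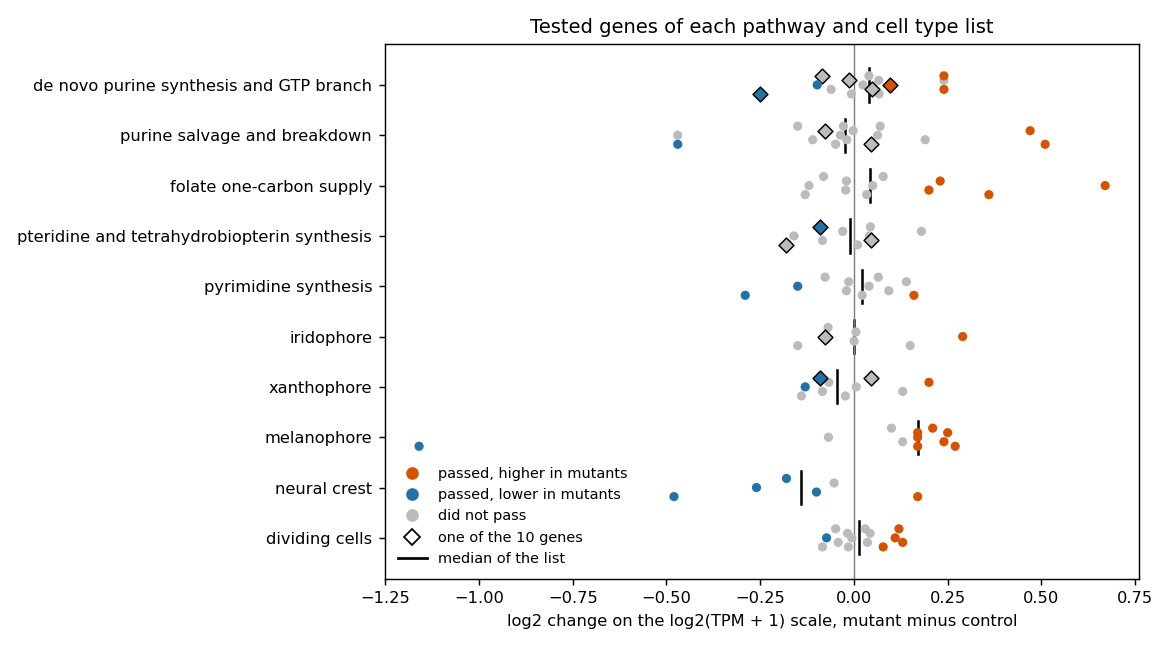
Log2 change on the log2(TPM + 1) scale, mutant minus control, of each tested gene in the pathway and cell type lists. The list of dopamine and serotonin neurons is not shown. Points are genes, diamonds are the 10 pigment pathway genes where tested, colours show which passed limma at an adjusted p under 0.05, and the black bar is the median of the list. The 2 lists on the pigment routes, iridophore and xanthophore, have medians near 0, while melanophore genes lie mostly right and neural crest genes mostly left of 0.

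Markers of melanophores, the black pigment cells, and of the neural crest, from which melanophores, iridophores and xanthophores derive, were counted in the same way. They are lists of genes read in whole larvae, so their RNA need not come from these cells alone. Of 11 tested melanophore genes, 7 rose and 1 fell (72.7% called, against 22.6% of all genes tested), with a median log2 change of 0.17, and their summed level was 570.5 to 580.6 TPM in mutants and 499 to 510.6 TPM in controls. TYRP1 (ENSDARG00000056151), TYR and pmela, of melanin synthesis and the melanosome matrix, had ratios of 1.2, 1.2 and 1.18, and the channel gene trpm1b one of 0.414. Of 6 tested neural crest genes, 4 fell and 1 rose, which is 83.3% called, and under 5 of 16 alternative settings, among them both rescalings and the omission of mutant replicate 1 or control replicate 1, 2 fell. Their median log2 change was -0.14 and their summed level 113.4 to 117.4 TPM in mutants and 122.2 to 126.2 TPM in controls. The regulator FOXD3 and the marker crestin had ratios of 0.823 and 0.659, SOX10 0.872 and snai2 1.13. The SOX10 call was lost under 7 of 16 alternative settings and that of snai2 under 2. Differences between these marker lists were not tested.

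Of 14 tested genes of dividing cells, 4 rose and 1 fell (35.7% called, against 22.6% of all genes tested). With 14 genes, this share is near the background. Those that rose included RRM1 and MCM2 (ratios 1.1 and 1.09, limma adjusted p = 0.00221 and 0.0145). Calls of MCM7 and MCM5 (ratios 1.08 and 1.06) were lost under 8 and 9 of 16 alternative settings. The gene that fell was RRM2 (ENSDARG00000078069, ratio 0.95), and 0 genes of the list fell under 4 of 16 alternative settings, both rescalings included. The summed level of the list was 3070 to 3104 TPM in mutants, within the 3055 to 3125 TPM of controls. No gene of the iridophore, xanthophore, melanophore, neural crest or dividing cell lists was at 0 in all libraries. The part of any of these cell types in the differences of PAICS, ATIC and gch2 was not tested.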

How the data were processed

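Total RNA of whole larvae was sequenced in 8 libraries, 4 per group. Reads were processed with STAR 2.7.3a and RSEM 1.3.1 on GRCz11, per the submitters' processing notes; the library's strand setting and the annotation release are not given in the sources used here. The authors deposited TPM with 2 decimals, a share per library that keeps no read depth, so no interval or floor from counts is given. Reads of near-identical or overlapping genes cannot be told apart. Symbols came from a table naming 29201 of 32520 identifiers. List genes were matched by symbol, RefSeq synonym or symbol without its copy letter. Entries without a match are missing from the list counts, medians and sums. They were prps1a, pnp5a, pnp5b, qdpra, qdprb1, qdprb2, pcbd2, ctps2, ednrba, alx4a, mitfa, sox9b and tph1a.

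The test was limma 3.58.1 in R 4.3.3 (eBayes with trend, two-sided) on log2(TPM + 1), for genes averaging 1 TPM or more, with Benjamini-Hochberg adjustment over all 16560. This scale understates changes of low genes. Intervals are 95% limma intervals. The limma test was also run on simulated data with independent noise for each gene. That simulation held no effect shared within a library or clutch, so it cannot show how the calls fare under one. Exact permutation tests of ratios used SciPy 1.17.1.

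The members and lists were chosen with earlier results of these data known. Named by rule besides members were up to 4 called genes of largest change per list, and 3 closest profiles. Other genes in the text, apart from the mutated gene, were named outside this rule, and their choice was not fixed beforehand. Alternatives were other pseudocounts, filters and scalings, no trend, a replicate block and leaving out each library. Same-numbered libraries did not deviate together. No sequence was used here.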

Additional observations from a re-analysis of the deposited data

Results flagged for a closer look

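In 3 of the 20 groups of 4 libraries examined for the 10 genes, 1 library stood apart from the other 3 by Dixon's criterion, which chance meets in about 1 of 20 groups. For ATIC the lowest mutant library, replicate 1, was at 118.33 TPM, with the next at 125.52 TPM. For ltk the lowest mutant library, replicate 4, was at 0.43 TPM, with the next at 0.59 TPM. For PAICS the lowest control library, replicate 2, was at 525.1 TPM, with the next at 537.64 TPM; without it the log2 change of PAICS was -0.261 (limma adjusted p = 6.69e-05). Control replicate 2 of PTS did not meet this criterion.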

How the results depend on the processing

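PAICS kept its direction and its call under all 16 alternatives and the mutated gene under the 15 that test it, since it averaged under 5 TPM, and the count over all genes stayed within 2932 to 3743 against 3745. The 3 calls among the 9 genes stayed 3 with pseudocounts of 0.1 and 5 and among genes of at least 5 TPM, and were fewer under every other alternative run. Changed members numbered 1 without the mean-variance trend and 1 with the replicate block, and 1 to 2 when a library was left out. Higher members numbered 0 without a filter on low values, without the trend and with the block, and 0 to 1 when a library was left out. Lower members numbered 1 after either rescaling, without the trend and with the block, and 1 to 2 when a library was left out. Under the replicate block, ATIC (limma adjusted p = 0.0818) and gch2 (0.0521) were lost. Same-numbered libraries had correlations of -0.1017 to -0.0288 in their deviations from the group means, and differently numbered ones of -0.05884 to 0.1255. No pairing by number was visible in these values, which cannot exclude that libraries were prepared in pairs.

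The change of PPAT turned to 0.0 and 0.008 after median-of-ratios rescaling and rescaling without mitochondrial and the 50 most abundant genes, and ran from -0.034 to 0.0 when a library was left out (0.0 without mutant replicate 4), and that of GMPS from -0.012 (without control replicate 2) to 0.092. The pnp4a to gch2 log2 difference ran from -0.03 to 0.045 when a library was left out, and was 0.009 with the replicate block (exact sign-flip p = 1.0). For the PAICS ratios, leaving out a library or pairing raises the smallest p an exact test can give to 0.0571 and 0.125, above 0.05. The cause of the lost calls was not tested. ltk could be tested only without the filter. Calls in the lists also varied: lower xanthophore genes numbered 0 to 2, lower genes of purine synthesis 1 to 2, higher ones 1 to 4, higher genes of dividing cells 2 to 4 and higher iridophore genes 1 to 2 over the settings, members included.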

Other observations

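Folate-bound carbon units enter the purine ring at steps of GART and ATIC. Of 12 tested genes of folate one-carbon supply, 4 rose and 0 fell by limma, and 5 were higher and 1 lower at an unadjusted p under 0.05 (33.3% called, against 22.6% of all genes tested). Without control replicate 2 or 3, 1 fell. The dehydrogenase copy MTHFD1 (ENSDARG00000018266) was at 2.86 TPM in mutants and 1.43 TPM in controls (ratio 2.0, limma adjusted p = 0.000204). The more abundant MTHFD1 copy (ENSDARG00000040492), at 56.0 TPM in mutants and 59.4 TPM in controls, did not pass (ratio 0.944, limma adjusted p = 0.16). The mitochondrial mthfd2 was at 33.4 TPM in mutants and 25.7 TPM in controls (ratio 1.3, limma adjusted p = 8.27e-05). ALDH1L1 and ALDH1L2 had ratios of 1.19 and 1.16. Of 11 tested pyrimidine synthesis genes, 2 fell and 1 rose (27.3% called). With 12 and 11 genes, both shares are near that of all genes tested. CAD, for the opening steps, was at 60.5 TPM in mutants and 74.2 TPM in controls (ratio 0.815, limma adjusted p = 0.000109), UMPS had a ratio of 0.901 and the salvage kinase gene uck2b one of 1.12. The UMPS call was lost under 9 of 16 alternative settings.

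Named after their values were seen, 2 further genes carry the symbol PNP, of purine nucleoside phosphorylase. PNP (ENSDARG00000078619) was at 28.8, 29.57, 29.14 and 28.3 TPM in mutants, against 24.35, 25.77, 23.15 and 24.22 TPM in controls, so it was above pnp4a in level and all mutant libraries lay above all controls (ratio 1.19, limma adjusted p = 0.00153). The other copy (ENSDARG00000099802) had a ratio of 0.977 and did not pass (limma adjusted p = 0.843). Of 7 genes of dopamine and serotonin neurons, which use tetrahydrobiopterin, 1 passed the filter, SLC6A4 (ratio 1.34), and did not change by limma (adjusted p = 0.268); the list's summed level was 3.28 to 4.04 TPM in mutants and 2.61 to 3.7 TPM in controls.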
